A study of Sus scrofa with 2 samples.

Results

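The genes described here are 10 growth factors and receptors of the EGF, FGF7 and HGF pathways in the endometrium of pregnant Yorkshire pigs. They were EGF, TGFA, HBEGF, AREG and FGF7 among the growth factors, and EGFR, ERBB2, ERBB3, FGFR2 and MET among the receptors. They were taken by gene symbol, but they and the gene lists used below were chosen with earlier results of these data known. A row of the deposited table counted for a gene when its RefSeq accession, without the version number, belonged to that symbol. Of the 10 genes, 7 had a matched row, out of 11071 genes with a matched row in all. No row was matched to FGF7, ERBB2 or ERBB3, so these 3 genes are not analysed here.

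The samples, called YK18, were taken at day 18 of gestation from the endometrium of 2 pigs of the Yorkshire breed. Each pig gave 1 RNA-seq library, called replicate 1 or replicate 2. The pigs were inseminated artificially, came from 1 commercial herd and were of like age, and each uterine horn was rinsed before the endometrium was taken. Meishan pigs and day 32 of pregnancy are not analysed here, so no comparison between breeds or days was made. Whole endometrium holds epithelium, glands, stroma, vessels and leukocytes, and in such bulk tissue fewer cells of a type and less RNA per cell cannot be told apart.

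In the EGF family, ligands such as EGF, TGFA, HBEGF and AREG are made as membrane proteins, cut free by ADAM proteases, and bind EGFR and its relatives ERBB2 and ERBB3. FGF7 signals through the epithelial form of FGFR2. HGF, classically a stromal product, binds MET on epithelial cells. All these receptors are tyrosine kinases that feed the RAS to ERK and PI3K to AKT chains. In the pig, whose conceptuses attach to the uterine surface without invading it, such factors are known as signals between endometrium and conceptus around attachment.

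The level of a gene is given in RPKM, reads per kilobase and per 1000000 reads, as the authors deposited it. The number of reads behind each value was worked out from the steps in which low values rise, which gave library totals of 7466979 reads in replicate 1 and 7023108 in replicate 2. Ratios between the pigs are given on the log2(RPKM + 1) scale, replicate 2 against replicate 1, which understates the change of low genes. The interval beside a ratio is an exact 95% interval from the reads of the 2 libraries. Reads that come from PCR are not independent molecules, so it covers counting error alone, and it compares 2 libraries and not 2 conditions. The reads used are the fewest that fit a value, and the interval would be narrower if the true reads were a whole multiple of them.

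The 3 receptors with a row were far above the growth factors with a row, all of the EGF family, in both pigs. MET, the receptor of HGF, had a level of 2383 RPKM in replicate 1 and of 1520 in replicate 2. EGFR, the receptor of EGF, TGFA, HBEGF and AREG, was at 1267 and 1408 RPKM. FGFR2, the receptor of FGF7, was at 844 and 983 RPKM, with its epithelial form not told apart from other forms. Against the 6985 genes above 0 in both libraries, MET stood at percentile 97.6 and 95.6, EGFR at 94.5 and 95.1, and FGFR2 at 91.5 and 92.5. All 3 receptors thus lay in the top 10% of these genes in each pig.

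The growth factors lay near the middle of the range. The level of EGF was 79.4 RPKM in replicate 1 and 107.2 in replicate 2. HBEGF, the heparin-binding member of the family, was at 45.0 and 173 RPKM. TGFA was at 15.1 and 7.12 RPKM. The median of the 6985 genes was 33.3 and 36.7 RPKM, so EGF and HBEGF lay above it in both pigs and TGFA below it in both. AREG, a ligand known for its response to steroid hormones in the uterus, had a row at 0 in each library. The table also lists 26.6% of all matched genes at 0, the housekeeping gene EEF1A1 among them, so AREG is described as listed at 0 and not as absent.

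The lowest receptor and the highest growth factor did not overlap in either pig. In replicate 1, FGFR2 was 10.6-fold above EGF, and in replicate 2 it was 5.68-fold above HBEGF. Over the 3 receptors and 4 growth factors with a row, the median receptor was above the median growth factor by 5.56 ± 0.02 on the log2(RPKM + 1) scale (SD, n = 2 pigs). The 4 growth factors are all ligands of EGFR, so MET and FGFR2 are set here against ligands of another receptor. AREG at 0 enters the growth factor median. Over the 6 genes with reads, the difference was 4.24 ± 0.77 (SD, n = 2 pigs), so the small SD of the first value rests on AREG. No test was made, since the 2 pigs are of 1 condition and the genes are not replicates.

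**Figure D1:**
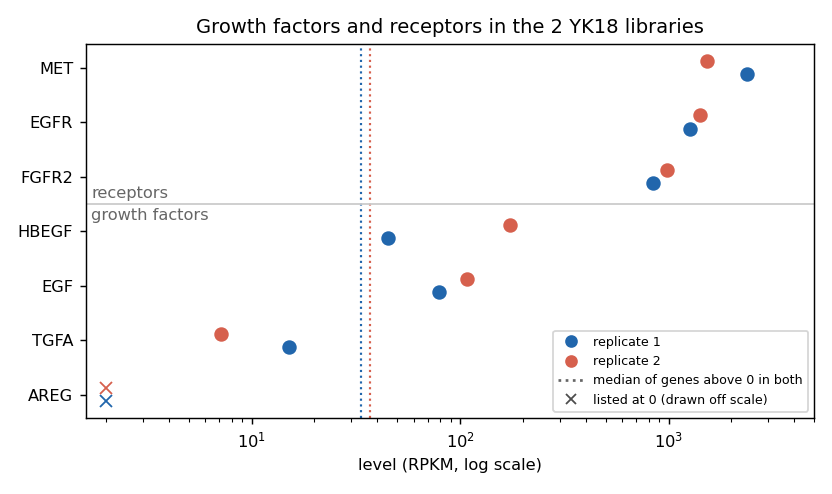
Level of each gene with a matched row in RPKM (horizontal log axis), with a point for each pig and the median of the 6985 genes above 0 in both libraries as dotted lines. MET, EGFR and FGFR2 sit at 844 RPKM or above in both pigs, EGF, HBEGF and TGFA sit at 173 RPKM or below, and AREG, drawn as crosses at the left edge, is listed at 0.

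The order among the receptors was less firm than their place above the growth factors. The mean was 1951 ± 610 RPKM for MET, 1337 ± 99.5 RPKM for EGFR and 913 ± 98.6 RPKM for FGFR2 (SD, n = 2 each). MET was 1.88-fold above EGFR in replicate 1 and 1.08-fold in replicate 2, and the difference of their means, 614 RPKM, was about as large as the SD of MET. EGFR was above FGFR2 by 1.50-fold in replicate 1 and 1.43-fold in replicate 2, a difference of 424 RPKM that was larger than either SD. Among the growth factors, HBEGF at 109.1 ± 90.6 RPKM and EGF at 93.3 ± 19.7 RPKM (SD, n = 2 each) changed places between the pigs and did not differ beyond their spread. TGFA, at 11.1 ± 5.62 RPKM (SD, n = 2), was below both in each pig.

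These levels depend on the length by which the reads were divided. The smallest length at which both libraries gave whole reads was 263 nt for MET, 157 nt for FGFR2 and 61 nt for EGFR. For the growth factors it was 125 nt for HBEGF, 81 nt for EGF and 80 nt for TGFA. These lengths are far below the reading frame of a receptor tyrosine kinase, and the true length and reads may be a whole multiple of them. How the reads were counted over such lengths was not tested.

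Without division by length, the receptors were still above the growth factors in recovered reads. MET had 4679 reads in replicate 1 and 2807 in replicate 2, or 627 and 399.7 per 1000000 reads. FGFR2 had 989 and 1084 reads, or 132 and 154 per 1000000. EGFR had 577 and 603 reads, or 77.3 and 85.9 per 1000000. FGFR2 was thus 1.71-fold and 1.80-fold above EGFR in reads per 1000000, the reverse of their order in RPKM, provided that the true reads of EGFR are not a multiple of those recovered. The lowest receptor, EGFR, was 12.0-fold above the highest growth factor, EGF, in replicate 1 and 3.97-fold above HBEGF in replicate 2. These gaps would be smaller, or lost, if the true reads of a growth factor alone were a whole multiple of those recovered. Longer mRNAs give more reads at the same level, so reads per 1000000 do not order genes by level either.

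**Figure D2:**
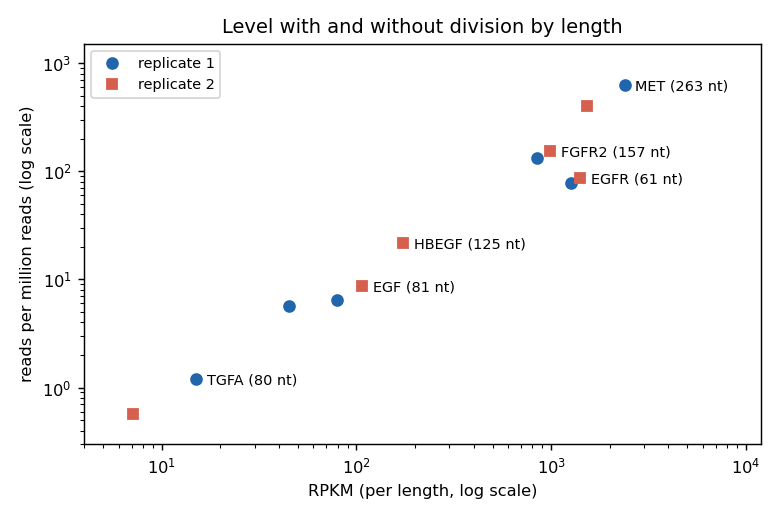
RPKM (horizontal log axis) against reads per 1000000 reads (vertical log axis) for the 6 genes with reads, with circles for replicate 1, squares for replicate 2 and the smallest length that gives whole reads beside each name. FGFR2 lies above EGFR on the vertical axis and left of it on the horizontal axis, and the 3 receptors lie above the 3 growth factors on both.

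Between the pigs, HBEGF stood apart from the other members. It had 42 reads in replicate 1 and 152 in replicate 2, and its log2 ratio was 1.92. Per 1000000 reads, HBEGF had 5.62 reads in replicate 1, with an exact binomial 95% confidence interval of 4.05 to 7.60. In replicate 2 it had 21.6, with an interval of 18.3 to 25.4. These intervals did not overlap, and the ratio was 3.85 (2.72 to 5.55). Of the 6 members with reads, HBEGF alone differed at least 2-fold between the pigs on the log2(RPKM + 1) scale. Of the 6476 genes with a mean of at least 1 RPKM, 10.7% did so, 7.49% with replicate 2 higher and 3.17% with replicate 2 lower, so 1 of 6 is near the background. A log2 ratio as large as that of HBEGF, in either direction, was found for 2.18% of these genes. With at least 100 reads over both libraries, 3.48% of 3762 genes differed 2-fold, and with at least 1000 reads, 2.79% of 1471. The 10.7% thus includes many genes with few reads, and it is a high yardstick for lists of genes with many reads.

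The other growth factors had few recovered reads. EGF had 48 and 61 reads, and its ratio of 1.35 had an interval of 0.911 to 2.02, which includes 1. TGFA had 9 and 4 reads, a log2 ratio of -0.98 and a ratio of 0.473 (0.106 to 1.69). TGFA thus lay just inside 2-fold on the log2(RPKM + 1) scale. From the recovered reads, which are the fewest that fit, a difference between the pigs was not detectable.

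The receptors differed less between the pigs but were measured from more reads. MET was lower in replicate 2, with a log2 ratio of -0.65 and a ratio of 0.638 (0.608 to 0.669). FGFR2 was slightly higher in replicate 2, with a ratio of 1.17 (1.07 to 1.27). EGFR had a ratio of 1.11 (0.990 to 1.25), which includes 1. The interval excluded 1 for 3 of the 6 members, HBEGF, MET and FGFR2, and for 31.0% of the 6476 genes. Among the 1471 genes with at least 1000 reads over both libraries, where intervals are narrow, 59.6% did so, and MET and FGFR2 are among these. The median log2 ratio of the 6 members was 0.19, beside 0.07 for all genes.

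**Figure D3:**
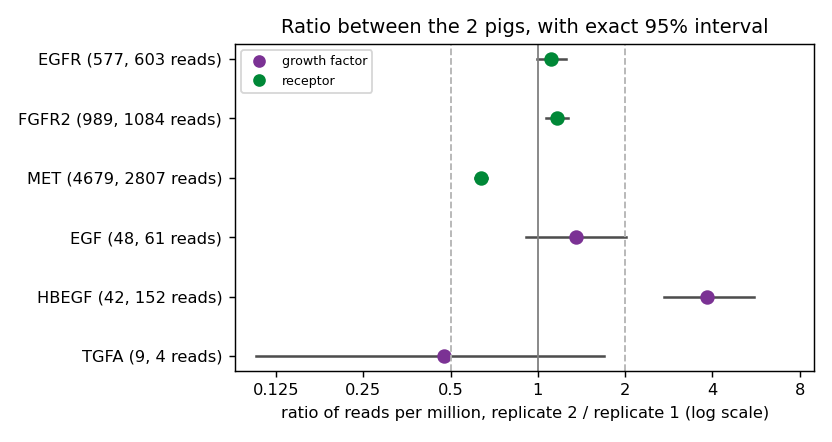
Ratio of reads per 1000000, replicate 2 over replicate 1 (horizontal log axis), for the 6 genes with reads, with points for the ratio, bars for the exact 95% interval and dashed lines at 2-fold. HBEGF at 3.85 lies wholly above 2, MET at 0.638 lies below 1 with a bar narrower than its point, and the bars of TGFA, EGF and EGFR cross 1.

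The make-up of the EGF family ligands followed HBEGF. Summed over EGF, TGFA, HBEGF and AREG, the ligands reached 139 RPKM in replicate 1 and 287 in replicate 2. EGF made up 56.9% of this sum in replicate 1 and 37.3% in replicate 2. HBEGF made up 32.3% and 60.2%, and TGFA 10.8% and 2.48%. EGFR was 9.09-fold above the summed ligands in replicate 1 and 4.90-fold in replicate 2. In recovered reads per 1000000 the leading ligand was the same, EGF at 48.5% in replicate 1 and HBEGF at 70.0% in replicate 2. There EGFR was 5.83-fold and 2.78-fold above the sum.

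**Figure D4:**
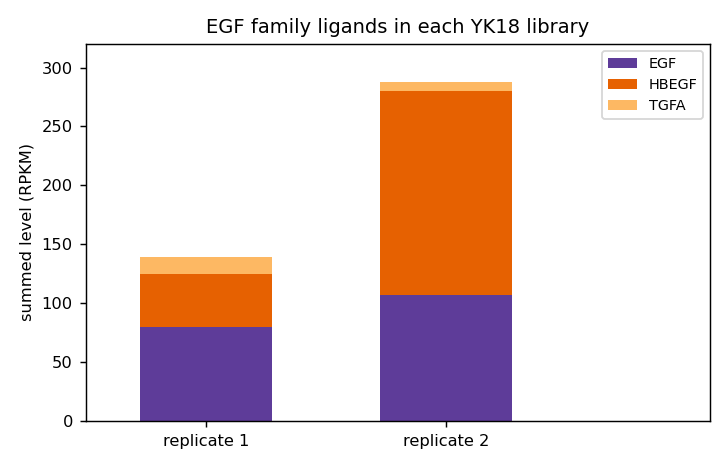
Summed level of the EGF family ligands in RPKM (vertical axis, from 0) in each pig, with a stacked block for each ligand and AREG, listed at 0, adding nothing. The sum is 139 RPKM in replicate 1, with EGF the tallest block, and 287 RPKM in replicate 2, with HBEGF the tallest block.

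Of the further EGF family ligands, NRG3 and NRG4, which are neuregulins, are listed at 0 in both libraries, and no row was matched to EREG, BTC, EPGN, NRG1 or NRG2. ERBB4 had no matched row either, so of the 4 ERBB receptors EGFR alone had a value. Of the 6 genes with a row for the release of these ligands, 3 proteases stood above the others. ADAM9 was at 1901 and 2514 RPKM, ADAM10, which is known to release EGF, at 1941 and 1742 RPKM, and ADAM17, which is known to release TGFA, HBEGF and AREG, at 542 and 575 RPKM. Each of these 3 proteases was above each EGF family ligand in both pigs, while ADAM19 was at 76.8 and 103 RPKM, RHBDL2 had 2 reads and 1 read, and ADAM15 is listed at 0. None of the 5 release genes tested differed 2-fold between the pigs, beside 10.7% of all genes.

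In the FGF family, FGF9 and FGF13 had the highest levels, and FGF7 and its close relative FGF10 had no matched row. FGF9, a secreted factor, was at 68.2 and 80.8 RPKM. FGF13, which stays inside the cell and does not act on FGF receptors in the classical way, was at 68.3 and 88.8 RPKM. FGF1 was at 7.31 and 6.05 RPKM and FGF18 at 1.48 and 0.785 RPKM. FGFBP1, a carrier protein that frees FGFs from the matrix, was at 15.1 and 16.6 RPKM. FGF4, FGF5, FGF19, FGF21 and FGF23 had at most 2 reads in a library. FGF3, FGF6, FGF14, FGF16 and FGF20 are listed at 0 in both, and no row was matched to FGF2, FGF8, FGF11, FGF12, FGF17 or FGF22. None of the 5 genes of this list with a mean of at least 1 RPKM differed 2-fold between the pigs, beside 10.7% of all genes.

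FGFR2 was the highest FGF receptor with a value. FGFR4 was at 241 and 207 RPKM, so FGFR2 was 3.50-fold and 4.75-fold above it. FGFR1 is listed at 0 in both libraries, and no row was matched to FGFR3 or FGFRL1. KLB, the co-receptor of endocrine FGFs, was at 2.11 and 1.57 RPKM. Heparan sulphate proteoglycans present FGFs and HBEGF to their receptors, and of those listed with a row SDC4 was the highest at 1132 and 1503 RPKM. No row was matched to SDC2, SDC3, GPC3 or GPC6. SDC1 was at 60.4 and 45.7 RPKM, GPC1 at 99.996 and 62.7 RPKM and GPC4 at 112 and 59.2 RPKM. Of the 7 genes with a mean of at least 1 RPKM, 5 were lower in replicate 2, beside 2717 of 6476 genes in all. None differed 2-fold, beside 10.7% of all genes. GPC4 came nearest, with a log2 ratio of -0.91.

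MET stood far above every other gene of the HGF system. HGF itself is listed at 0 in both libraries, as is its activator HGFAC. MST1R, the closest relative of MET, was at 2.84 and 2.41 RPKM, and MET was 840-fold and 630-fold above it. MST1R had only 5 and 4 recovered reads, so the size of these folds is rough. MST1, the ligand of MST1R, had 1 read in replicate 1 and is listed at 0 in replicate 2. PLAU, a protease that can activate HGF, was at 8.68 and 9.89 RPKM, and ST14, which can do the same, at 5.90 and 8.96 RPKM. SPINT1 and SPINT2 are membrane-bound inhibitors of these proteases. SPINT2 was at 25.6 and 38.6 RPKM. SPINT1 was at 1.58 and 5.61 RPKM and was the only gene of the 7 tested that differed 2-fold, beside 10.7% of all genes. However, its 3 and 10 recovered reads gave the ratio of 3.54 an interval of 0.913 to 20.04.

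In the signalling chains below the receptors, 1 gene differed 2-fold between the pigs. Of the adaptors, GRB2, which links receptors to RAS, was at 426 and 421 RPKM, FRS2, the docking protein of FGF receptors, at 252 and 233 RPKM, and CRK at 206 and 226 RPKM. In the RAS to ERK chain, NRAS was at 797 and 905 RPKM and MAP2K1 (MEK1) at 618 and 654 RPKM. In the PI3K to AKT chain, MTOR was at 1623 and 1387 RPKM and FOXO3 at 37.8 and 40.4 RPKM. Over these 3 lists, 22 genes had a mean of at least 1 RPKM, and 1 differed 2-fold. This is 4.55%, beside 10.7% of all genes and 3.48% of the genes with at least 100 reads over both libraries. With 1 gene of 22, no difference from either share is read from it. The gene was ARAF, a RAF kinase, with 7 reads in replicate 1 and 0 in replicate 2. The interval of its ratio reached up to 0.738. The interval excluded 1 for 8 of the 22 genes, beside 31.0% of all genes. STAT3 is listed at 0 in both libraries, so the lists are incomplete.

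Genes that restrain the receptors differed by less than 2-fold between the pigs. LRIG3 was at 572 and 396 RPKM and LRIG1, which lowers EGFR and MET at the cell surface, at 527 and 415.5 RPKM. PTPN1, a phosphatase that acts on receptor kinases, was at 369 and 459 RPKM. The intervals of these 3 genes excluded 1, with ratios of 0.692 for LRIG3, 0.789 for LRIG1 and 1.24 for PTPN1. Those of the other 8 tested did not, and 31.0% of all genes had an interval that excluded 1. None of the 11 differed 2-fold, beside 10.7% of all genes, and the median log2 ratio was 0.08.

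Of the 11 pathway lists, the targets of ERK signalling had the most genes that differed 2-fold between the pigs. Of 13 genes, 10 had a mean of at least 1 RPKM, and 5 of these were at least 2-fold higher in replicate 2, against 7.49% of all genes. None was 2-fold lower. This list, like the others, was chosen with earlier results of these data known, so the excess is not independent of them. The count was 2 when both libraries were rescaled to sum to 1000000, where the same pseudocount weighs more, and 1 of 4 with accessions matched with their version. FOS was at 52.9 RPKM in replicate 1 and 253 in replicate 2, JUNB at 32.9 and 85.9 RPKM and FOSL1 at 1.56 and 5.96 RPKM. These 3 genes encode parts of the AP-1 transcription factor. DUSP5 was at 29.8 and 62.7 RPKM and DUSP4 at 7.34 and 17.9 RPKM, and both encode phosphatases that act back on ERK.

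Not all targets went that way. DUSP6, the phosphatase most closely tied to FGF signalling, was at 507 and 428 RPKM, and ETV5, a transcription factor downstream of FGF receptors, was at 409 and 261 RPKM. ETV5 had a ratio of 0.638 (0.577 to 0.706), lower in replicate 2. The interval of the ratio excluded 1 for 9 of the 10 genes, 7 of them higher in replicate 2, beside 31.0% of all genes. The median log2 ratio of the 10 genes was 0.94, beside 0.07 for all genes, and it was -0.0076 over the 4 genes left when accessions were matched with their version.

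**Figure D5:**
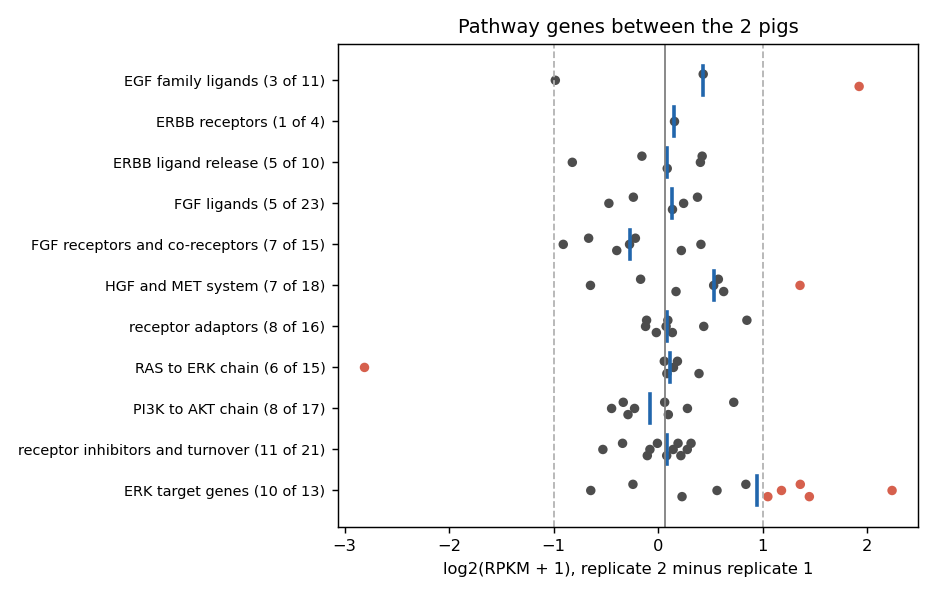
Difference in log2(RPKM + 1), replicate 2 minus replicate 1 (horizontal axis), for each gene with a mean of at least 1 RPKM in the 11 pathway lists, with a blue bar at the median of a list, dashed lines at 2-fold and the median of all genes as a grey line. Red points differ at least 2-fold, and 5 of the 8 red points are ERK targets, the others being HBEGF, SPINT1 and ARAF.

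The labelled tissue was checked against markers of cell types, summed over the genes of a list with a row. Epithelial markers summed to 12197 RPKM in replicate 1 and 11231 in replicate 2 over 7 of 10 genes, with KRT8 listed at 0, and endothelial markers to 6437 and 6108 RPKM over 4 of 7 genes. Smooth muscle markers were low, at 115 and 105.0 RPKM over 6 of 8 genes, with ACTA2, CNN1, MYLK and SMTN listed at 0. The sums of these 3 lists were close between the pigs, but single epithelial markers were not, with ratios of 0.655 (0.611 to 0.701) for KRT18 and 1.71 (1.53 to 1.91) for CLDN3. The sums of the next 4 lists differed more. Stromal markers summed to 69904 and 45289 RPKM over 7 of 10 genes, nearly all of it COL3A1, with POSTN listed at 0. Of the 5 stromal markers tested, 3 were higher in replicate 2, beside 3759 of 6476 genes in all. Of these, THY1 was at least 2-fold higher, beside 7.49% of all genes. Skeletal muscle markers summed to 746 and 46.5 RPKM over 11 of 12 genes. All 10 tested were at least 2-fold lower in replicate 2, beside 3.17% of all genes. Trophectoderm markers summed to 823 and 228 RPKM over 7 of 10 genes, most of it IFNG, which pig trophectoderm makes around attachment, with CGA, GATA3 and ELF5 listed at 0. Without IFNG this sum was 141 and 139 RPKM, most of it GATA2 at 122 and 125 RPKM, so it rests on 1 gene. Leukocyte markers went the other way, at 1058 and 1622 RPKM over 8 of 9 genes, with CD3D and CD79A listed at 0. Markers lower in replicate 2 were 2 of 6 tested in epithelium, 2 of 5 in stroma and 2 of 4 in endothelium. They were 2 of 3 in trophectoderm, 2 of 2 in smooth muscle, 10 of 10 in skeletal muscle and 0 of 6 in leukocytes. Over all genes it was 2717 of 6476. MET was lower in replicate 2 and HBEGF was higher. The part of these cell types in the difference of MET or of HBEGF was not tested.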

How the data were processed

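Endometrium RNA from 2 YK18 pigs was analysed, with 1 library each. The authors used HTSeq to count reads and deposited RPKM, at 1 value for each transcript and library. The aligner, genome build and annotation are not given in the sources used here, so no coordinates are given. Accessions of 38222 mRNA rows were matched to RefSeq genes of Sscrofa11.1, for 16072 rows (42.0%) and 11071 genes, and the rows of a gene were summed. Each member had 1 row.

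Library totals and reads were recovered from the RPKM steps, at the smallest length up to 20000 nt that gave whole reads within a relative tolerance of 2e-08. Such a length was found for 100% of 25584 rows above 0, but it can be a divisor of the true length. The scripts were tested on simulated data without the shortest lengths. There, a recovered length had to divide the true length, not equal it. RPKM values are not counts, so no count model was fitted, and no p-value is given with 2 libraries of 1 condition. The pseudocount was 1 and 2-fold calls needed a mean of 1 RPKM. The named genes are the members, other ligands and receptors of the families, and, of each pathway list, the 3 highest genes and those that differed 2-fold, of which some are not reported here. STAT3, EEF1A1, ADAM19, RHBDL2, ADAM15, and the markers COL3A1, IFNG, GATA2, KRT18, CLDN3, THY1 and those at 0 were named after their values were seen. The members and lists were chosen with earlier results of these data known. Alternatives were other pseudocounts, filters, scalings, accession matching, each replicate left out, and reads per 1000000. Python 3.11.15, pandas 2.3.3, numpy 2.4.6, scipy 1.17.1 and matplotlib 3.10.9 were used.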

Additional observations from a re-analysis of the deposited data

How the results depend on the processing

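No paired analysis was possible because there is only the YK18 group, with no second group to pair. The median receptor was above the median growth factor, by 5.56 on the log2(RPKM + 1) scale, under every alternative tried. The difference was 5.63 with a pseudocount of 0.1, 5.64 with 0.01, 5.34 when both libraries were rescaled to sum to 1000000, 5.22 in reads per 1000000, 5.81 with accessions matched with their version, which loses FGFR2, 4.24 without AREG, which is listed at 0, and 6.24 with means in place of medians. Without either replicate it ran from 5.54 to 5.57. The median level of the 7 genes with a row, 126 RPKM, was 29.5 with the sum of 1000000 and 14.0 in reads per 1000000, as these scales are smaller by construction, and 79.4 to 173 without either replicate. The number of members that differed 2-fold, 1, became 2 with a pseudocount of 0.1 or 0.01, when TGFA joined HBEGF at a log2 ratio of -1.07 and -1.08. Over all genes, the number that differed 2-fold was 690 and ran from 241 with the version matched, where fewer genes are tested, to 978 with a pseudocount of 0.01, with 262 at the sum of 1000000, 255 in reads per 1000000 and 356 at a mean of 5 RPKM. In settings added after the data were seen, the count of ERK targets 2-fold higher in replicate 2, 5, ran from 1 of 4 with the version matched, where the median log2 ratio went from 0.94 to -0.0076, to 5. The 3 members whose interval excluded 1 were the same with a 99% interval and with ratios centred on the median of all genes. The median log2 ratio of the members moved by less than the spread between members under the 8 alternatives run for it. The SD of 2 pigs is a rough estimate, and the ratio of TGFA is limited by its 9 and 4 recovered reads, the fewest that fit.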
